A study of Mus musculus with 9 samples.

Results

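Genes for making, importing and charging amino acids were followed through B cell activation in the mouse spleen. The 37 genes were chosen by function: 12 encode enzymes that synthesise amino acids or feed the folate-linked one-carbon pool, 4 belong to the amino acid stress response, 9 encode plasma membrane transporters and 12 encode cytosolic aminoacyl-tRNA synthetases. All 37 were present among the 29995 genes of the table from which the submitters had removed immunoglobulin (Ig) genes, and all 37 were among the 12892 genes that passed a filter of at least 1 TPM (a length-corrected share of all transcripts, scaled so that a library has the same total as any other) in at least 3 libraries. Slc1a4 and Chac1 reached that filter through the PC libraries, having 0 and 2 libraries at 1 TPM or more outside PCs.

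RNA-sequencing covered 9 libraries in 3 groups of 3, all from spleens of 12 week old B6.Blimp1GFP/+ mice taken 4 days after an intraperitoneal dose of 50 µg NP-LPS, a hapten coupled to lipopolysaccharide. In these mice GFP reports Blimp1, the transcription factor encoded by Prdm1 that drives plasma cell differentiation, so every group carried the reporter allele and every group, naive cells included, came from an immunized animal. Naive B cells were sorted as IgD high, B220+ and NP-. Activated B cells bound NP and were sorted as IgD-, GFP-, CD138-, B220+ and NP+. Plasma cells (PCs) were sorted as IgD-, GFP+, CD138+, B220+/- and NP+, and all 3 gates left out cells with CD4, CD8a, Ter-119 or F4-80. The 3 libraries of a group stand for 3 mice, and p-values measure the spread between them. Activated B cells and PCs may come from the same animals, and which libraries share a mouse is not given in the sources used here.

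Amino acids reach the ribosome by a short chain of steps: carriers import them, enzymes build the non-essential ones from glycolytic and mitochondrial intermediates, and each aminoacyl-tRNA synthetase joins its amino acid to the matching tRNA. When charged tRNAs run short or the endoplasmic reticulum is loaded with unfolded protein, phosphorylation of eIF2alpha favours translation of the transcription factor ATF4. ATF4 pairs with C/EBP family proteins on the C/EBP-ATF response element, with the core TGATGNAA, and many genes of this list are known targets. Plasma cells secrete antibody at a high rate and are known for a large demand for amino acids.

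The labelled identities were checked against markers before the members were read. The summed level of 6 B cell markers was 8446 to 8759.7 TPM in naive cells, 6301 to 6778 in activated B cells and 1497 to 1568 in PCs, and that of 5 plasma cell markers was 142 to 167, 175 to 194 and 4811 to 5939 TPM. The 6 T cell markers summed to 3.78 to 7.42 TPM in every library, with Trac at 0 throughout. The summed level of 5 myeloid markers was 5.37 to 6.55 TPM in naive cells, 60.8 to 101 in activated B cells and 34.2 to 116 in PCs. The 6 proliferation markers summed to 157 to 182 TPM in naive cells, 754 to 979 in activated B cells and 591 to 726 in PCs, so dividing cells moved with the groups and their part in the results was not tested. PC replicate 3 stood apart, since 8 hepatocyte markers summed to 4906 TPM there against 26.6 and 22.8 in the other PC libraries, all 8 of them being above 0. Depth was 20189900 to 38602300 estimated reads per library without Ig genes. In sorted populations measured in bulk, fewer cells expressing a gene and less RNA per cell cannot be told apart.

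The response element core is shown here for the 6 members that held it near their start and rose in PCs over naive or activated B cells, as 30 bases around the match on the strand of the gene, 5′ to 3′, with the core in capitals. Of these, Slc1a4 and Chac1 passed the filter through the PC libraries, so a difference was built into the filter. The rise of Tars depended on single libraries, as given below. TGATGNAA was searched on both strands, and the opposite strand reads TTNCATCA. Sequences and start sites are those of RefSeq on GRCm38.p6, and windows ran from 250 bases before to 50 bases after the start.
Asns: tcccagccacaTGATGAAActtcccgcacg
Pycr1: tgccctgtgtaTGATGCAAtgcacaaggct
Yars: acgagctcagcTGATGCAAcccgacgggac
Tars: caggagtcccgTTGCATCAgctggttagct
Chac1: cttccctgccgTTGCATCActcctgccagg
Slc1a4: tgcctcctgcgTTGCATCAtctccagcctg
The Asns stretch lies at chr6:7693214-7693243 on the minus strand, with the core 23 to 16 bases before the start, written as -23 to -16. The Pycr1 stretch lies at chr11:120643833-120643862 on the minus strand with the core at -103 to -96. The Yars stretch lies at chr4:129189895-129189924 on the plus strand with the core at 4 to 11, after the start. The Tars stretch lies at chr15:11399655-11399684 on the minus strand with the core at -15 to -8. The Chac1 stretch lies at chr2:119351038-119351067 on the plus strand with the core at -193 to -186. The Slc1a4 stretch lies at chr11:20332699-20332728 on the minus strand with the core at -4 to 4. A window was held for 29 of the 37 members, and 11 of those 29 (37.9%) contained the core, against 4.51% of the 27025 gene symbols with a window and 3.97% of all 32851 windows of that length. Many of the listed genes are known ATF4 targets, so the choice of genes favoured a larger share and the contrast is a description only. The other 5 members with the core were Trib3, Slc7a11, Aars, Gars and Iars, with a second copy in Slc7a11 and in Aars. Cth, Slc7a5, Slc1a5, Slc38a1, Cars, Lars, Nars and Wars had no entry.

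Differences between groups were estimated with limma on voom-transformed TPM in one model of all 9 libraries. A gene was called where its Benjamini-Hochberg adjusted p (limma) over all 12892 genes was under 0.05 and its fold change over 2, and "rose" and "fell" are used of such genes only. In PCs against naive B cells, 12 of the 37 members rose and 2 fell, where 11.4% of all genes tested rose and 26.3% fell. The median member changed by 0.65 on the log2 scale and the median gene by -0.47. In activated against naive B cells, 5 members rose and 1 fell (8.13% and 10.4% of all genes), with medians of 0.37 for members and -0.16 for all genes. In PCs against activated B cells, 9 members rose and 4 fell (9.93% and 22.3% of all genes), with medians of 0.43 and -0.30. Leaving aside Slc1a4 and Chac1, which passed the filter through the group where they are high, 11 of 35 rose and 2 fell in PCs against naive cells and 7 rose and 4 fell in PCs against activated B cells. At a lower bar, an adjusted p under 0.05 and a difference of 0.5 or more on the log2 scale, members above and below numbered 21 and 4 for PCs against naive cells (16.5% and 39.7% of all genes), 11 and 4 in activated against naive cells (15.7% and 20.9%) and 13 and 6 in PCs against activated B cells (14.2% and 35.9%). The 3 comparisons share their libraries pairwise, so each is given with its own values. These directions hold relative to a table without Ig genes, and with Ig genes kept the median member lay at -0.50 in PCs against naive cells and -0.79 in PCs against activated B cells, as described further on. That fit again scaled each library to the sum of its column, which was 90.3% to 93.8% of 1000000 TPM in naive and activated B cells but 67.2% to 70.0% in PCs. With the deposited TPM of that table left as it is, an alternative chosen after seeing the data, the medians were -0.96 and -1.20, with 3 members higher and 17 lower, and 1 higher and 20 lower. The median gene lay lower still in that fit, at -1.85 and -1.68. Values given below for Ig genes kept are from the rescaled fit unless stated otherwise.

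**Figure D1:**
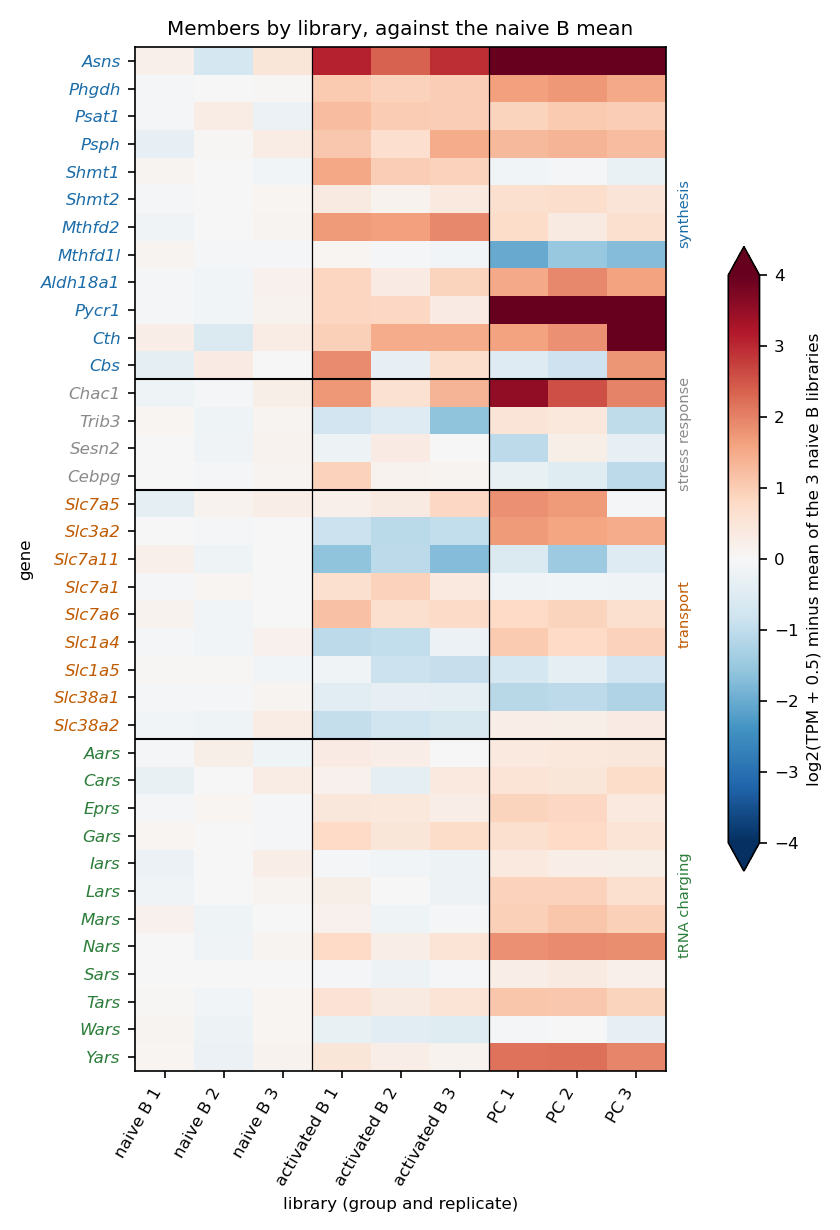
Level of each of the 37 members in each of the 9 libraries as log2(TPM + 0.5) minus the mean of the naive libraries, ordered by role; rows are genes, columns are libraries, and the colour scale ends at 4 in either direction. Asns and Pycr1 in PCs and Cth in PC replicate 3 lie beyond the end of the scale.

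**Figure D2:**
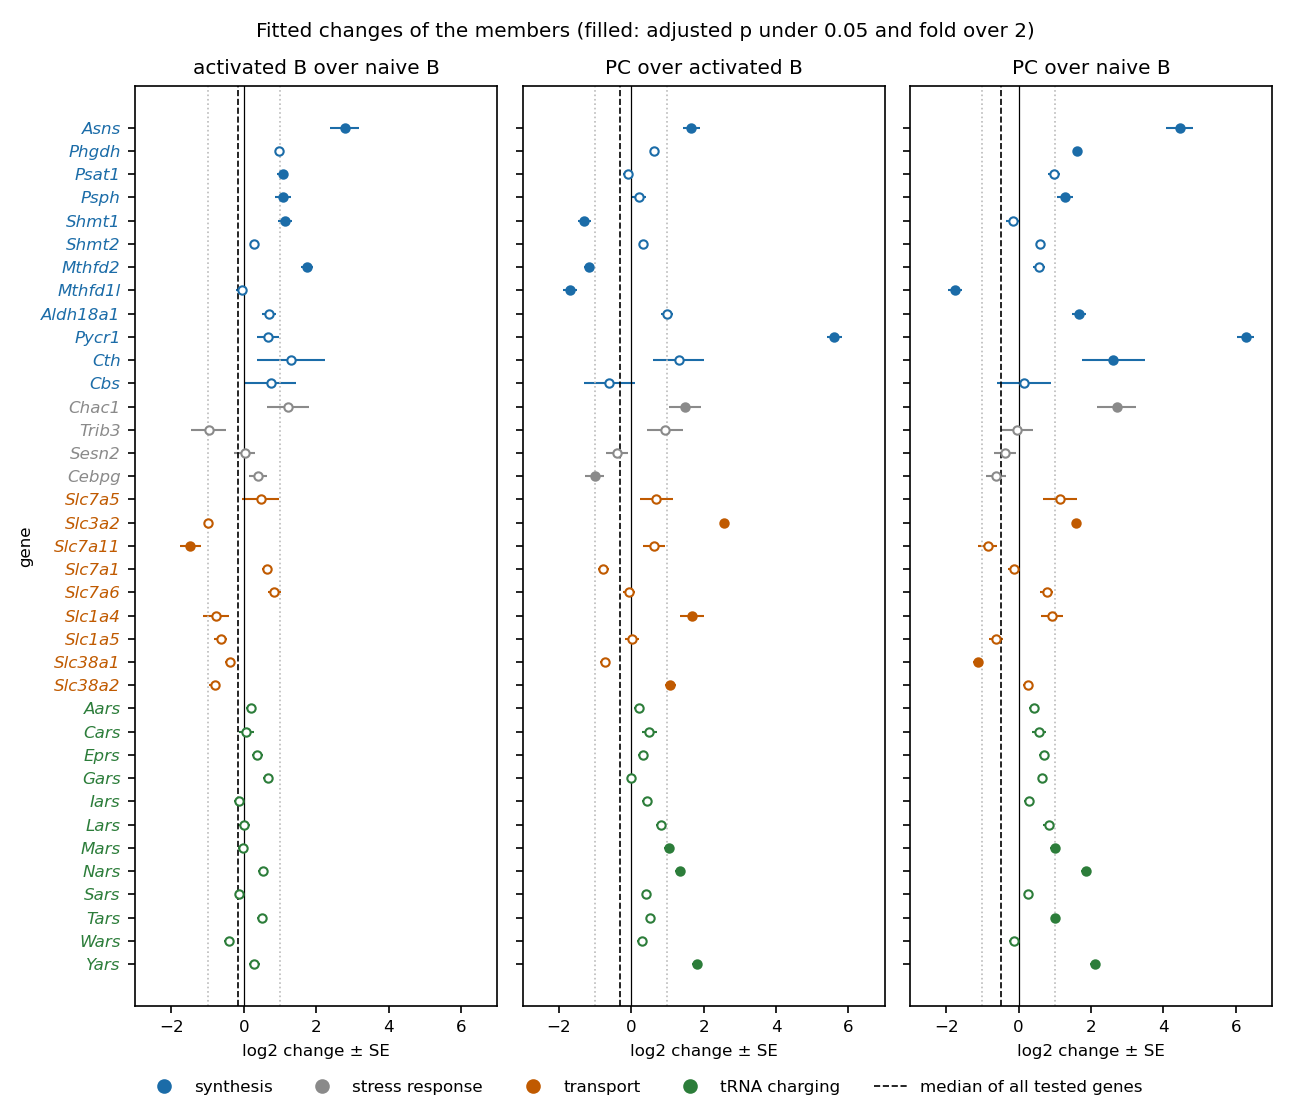
Fitted log2 change of each member with its standard error in the 3 comparisons (n = 3 libraries per group, table without Ig genes); filled points are called, dashed lines mark the median of all genes tested and dotted lines the fold bar of 2. For PCs over naive cells 12 filled points lie to the right and 2 to the left; with Ig genes kept the counts were 4 and 9.

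In activated against naive B cells, 5 of the 12 synthesis genes (41.7%) rose and none fell, where 8.13% and 10.4% of all genes did, with a median log2 change of 1.03. PCs had 6 (50.0%) that rose and 1 (8.33%) that fell against naive cells, where 11.4% and 26.3% of all genes did, with a median of 1.13, or 3 higher and 2 lower and a median of -0.00 with Ig genes kept. In PCs against activated B cells 2 (16.7%) rose and 3 (25.0%) fell, where 9.93% and 22.3% of all genes did, with a median of 0.26, or -0.85 with Ig genes kept. The summed level of the 12 genes was 266, 279.5 and 288 TPM in naive cells, 572, 479 and 555 TPM in activated B cells and 859, 899 and 799.7 TPM in PCs, so the 3 groups did not overlap in the table without Ig genes. In the table with them the sums were 249, 261 and 269.8 TPM, then 506, 429.7 and 501 TPM, then 256, 250.01 and 240.03 TPM, so PCs and naive cells overlapped and activated B cells lay above both. Without Ig genes, most of the gain in the sum from activated B cells to PCs lay in Phgdh and Pycr1. Their levels are given below.

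Asparagine synthetase, encoded by Asns (chr6:7675169-7693254, minus strand), rose at each stage in the table without Ig genes. Its level was 1.53, 0.6 and 1.99 TPM in naive B cells, 14.5, 8.57 and 13.3 TPM in activated B cells and 48.9, 34.2 and 33.5 TPM in PCs. In that table no library of one group reached into the range of another. The fitted log2 change over naive cells was 2.79 ± 0.40 (SE, adjusted p = 0.000342) in activated B cells and 4.45 ± 0.38 (adjusted p = 2.22e-06) in PCs, 6.91-fold and 21.8-fold. PCs exceeded activated B cells by 1.66 ± 0.24 on the log2 scale (adjusted p = 0.000154), and with Ig genes kept by 0.49 ± 0.26, which missed the threshold (adjusted p = 0.11).

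In the proline branch, Pycr1, the mitochondrial reductase that completes proline synthesis (chr11:120635712-120643769, minus strand), was low in both B cell groups and high in PCs. Pycr1 lay at 1.67, 1.59 and 1.99 TPM in naive cells, 3.54, 3.49 and 2.34 TPM in activated B cells and 186, 185 and 155 TPM in PCs. It rose 77.6-fold over naive cells, a log2 change of 6.28 ± 0.23 (adjusted p = 4.31e-09), and 48.9-fold over activated B cells, 5.61 ± 0.21 (adjusted p = 4.36e-09). The difference between activated and naive B cells, 0.66 ± 0.29, missed the threshold (adjusted p = 0.0922). Aldh18a1, which makes the pyrroline-5-carboxylate precursor from glutamate, was 19.4, 19.1 and 23.3 TPM in naive cells, 38.1, 25.7 and 38.9 TPM in activated B cells and 59.5, 79.7 and 63.6 TPM in PCs. Aldh18a1 rose by 1.68 ± 0.19 in PCs over naive cells (adjusted p = 1.95e-05), or 0.48 and not called with Ig genes kept. Against activated B cells the change was 0.99 ± 0.17, a fold of 1.98 just under the bar. It passed under median-of-ratios (1.36) and quantile scaling (1.31) and on leaving out activated replicate 1 or 3 or PC replicate 1 or 3 (1.03 to 1.09), but was -0.20 with Ig genes kept.

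Of the 3 enzymes of serine synthesis, Psat1 and Psph rose in activated B cells, and Phgdh and Psph rose in PCs, over naive cells. Phgdh, the first enzyme from 3-phosphoglycerate to serine (chr3:98313170-98339990, minus strand), was the most abundant of the 12 synthesis genes in PCs. It measured 108, 112 and 115 TPM in naive cells, 231, 211 and 223 TPM in activated B cells and 346, 374 and 318 TPM in PCs, with no overlap between groups. Phgdh rose in PCs over naive cells by 1.62 ± 0.09 (adjusted p = 1.04e-07), but was not called with Ig genes kept (0.40). The deposited means of Phgdh in that table were 104.7 ± 3.47 TPM in naive cells, 198.5 ± 7.97 TPM in activated B cells and 100.9 ± 4.79 TPM in PCs (SD, n = 3). Without rescaling the fitted change in PCs over naive cells was -0.05. From activated B cells to PCs the change with Ig genes kept was -0.56 and not called, so PCs lay below activated B cells there. In activated over naive B cells the change of Phgdh without Ig genes, 0.98 ± 0.09, was a 1.97-fold difference that missed the fold bar although its adjusted p was 2.68e-05. It passed without activated replicate 2 (1.01) and under median-of-ratios scaling (1.09), where the change from activated B cells to PCs was also called higher (1.02).
Psat1, the aminotransferase of the next step, was 18.3, 23.7 and 16.1 TPM in naive cells, 45.7, 39.2 and 38.6 TPM in activated B cells and 36, 40.3 and 38.7 TPM in PCs. The activated and PC ranges of Psat1 overlapped in the table without Ig genes. With Ig genes kept Psat1 was called lower in PCs against activated B cells (-1.26). Psat1 rose in activated over naive B cells by 1.07 ± 0.16 (adjusted p = 0.000362), which fell under the fold bar without naive replicate 3 (0.95) or activated replicate 1 (1.00). In PCs its change was 0.98 ± 0.16, under the fold bar. It passed under median-of-ratios (1.47) and quantile scaling (1.43), with the deposited log2 values (1.10) and estimated counts (1.09), and without naive replicate 2 (1.13) or PC replicate 1 (1.02), and was -0.20 with Ig genes kept. Psph, the phosphatase that releases serine, rose in activated B cells by 1.07 ± 0.22 (adjusted p = 0.00281) and in PCs by 1.28 ± 0.21 (adjusted p = 0.000379) over naive cells, from 18.6, 24.1 and 28.5 TPM to 50.1, 37.6 and 66.5 TPM and 57.9, 60.1 and 55.3 TPM. The activated call for Psph was lost without naive replicate 1 (0.91) or activated replicate 3 (0.87), and its PC call with Ig genes kept (0.08). In that table Psph was deposited at 22.2 ± 4.67 TPM in naive cells and 16.9 ± 0.35 TPM in PCs (SD, n = 3), and without rescaling its change was -0.37.

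Of the 4 one-carbon enzymes, 3 fell from activated B cells to PCs. Mthfd2, the mitochondrial methylenetetrahydrofolate dehydrogenase (chr6:83305691-83325908, minus strand), had its highest levels in activated B cells, at 43.3, 40.7 and 49.8 TPM against 11.7, 13.1 and 13.8 TPM in naive cells and 21.8, 16.8 and 20.1 TPM in PCs. It rose in activated B cells by 1.74 ± 0.15 (adjusted p = 1.48e-05) and fell from there to PCs by 1.17 ± 0.14 (adjusted p = 4.41e-05). Shmt1, the cytosolic serine hydroxymethyltransferase, was likewise highest in activated B cells: 22.4, 20.3 and 19.2 TPM, then 61.3, 40.9 and 39.4 TPM, then 19.1, 19.7 and 16.9 TPM. Its rise was 1.14 ± 0.18 (adjusted p = 0.000736), or 0.94 and not called without activated replicate 1, and its change from activated B cells to PCs was -1.29 ± 0.19 (adjusted p = 0.000153). Under median-of-ratios and quantile scaling the declines of Mthfd2 (-0.79 and -0.71) and Shmt1 (-0.92 and -0.82) from activated B cells to PCs were no longer past the fold bar.
Mthfd1l, which releases formate from mitochondria, was level in naive and activated B cells (12.5 to 14.8 TPM) and was 2.97, 4.44 and 3.75 TPM in PCs. It fell by 1.76 ± 0.19 against naive cells (adjusted p = 1.65e-05) and by 1.70 ± 0.19 against activated B cells (adjusted p = 2.68e-05). Shmt2, the mitochondrial partner of Shmt1, lay at 48.1 to 53.5, 56.3 to 66.8 and 72.4 to 82.2 TPM and was called in no comparison of this fit, with 0.60 ± 0.11 in PCs over naive cells. Its PC change over naive cells was 1.10 and called higher under median-of-ratios scaling, -0.60 and not called with Ig genes kept, and -1.05 and called lower there without rescaling.

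The transsulfuration enzymes Cth and Cbs, which turn homocysteine into cysteine, were at most 4.05 TPM outside PC replicate 3. Cth was 0.603, 0.112 and 0.634 TPM in naive cells, 1.27, 2.09 and 2.06 TPM in activated B cells and 2.3, 2.71 and 19.4 TPM in PCs. The high value of Cth belongs to PC replicate 3, the library with hepatocyte markers, and their part in it was not tested. Cth rose in PCs over naive cells by 2.62 ± 0.86 (adjusted p = 0.0212), by 1.71 ± 0.37 without PC replicate 3 (adjusted p = 0.00295), and lost the call without naive replicate 2 (2.33, adjusted p = 0.0687) or 3 (2.78, adjusted p = 0.0542). In activated over naive B cells the change of 1.30 ± 0.93 missed the threshold, and the same size passed it once PC replicate 3 was left out of the shared estimate of spread (adjusted p = 0.0145). Cbs ranged from 0.196 to 4.05 TPM with overlap in every comparison, its value in PC replicate 3 (3.73 TPM) again being the highest of the PCs.

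**Figure D3:**
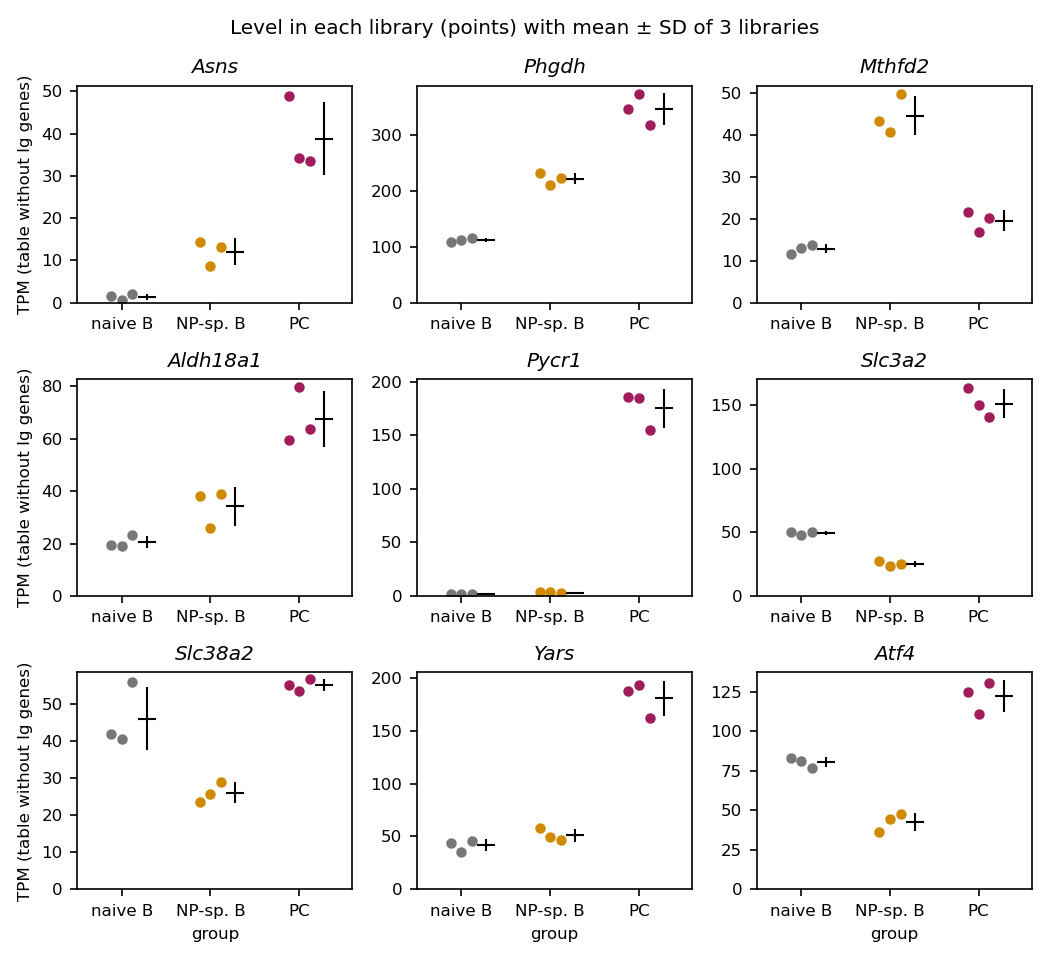
TPM of Asns, Phgdh, Mthfd2, Aldh18a1, Pycr1, Slc3a2, Slc38a2, Yars and Atf4 in each library (table without Ig genes); points are libraries and bars the mean with its SD (n = 3 per group). Pycr1 lies at or below 3.54 TPM outside PCs and at or above 155 TPM in PCs, whereas Mthfd2 is highest in activated B cells.

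Among the 4 stress response genes, Chac1 rose in PCs and Cebpg fell from activated B cells to PCs. Chac1 (chr2:119351229-119354381, plus strand), which degrades glutathione, was 0.185, 0.253 and 0.417 TPM in naive cells, 2.08, 0.684 and 1.5 TPM in activated B cells and 8.69, 4.2 and 2.6 TPM in PCs. These low levels, from the table without Ig genes, did not overlap between groups. With Ig genes kept the deposited levels were 1.84, 0.614 and 1.35 TPM in activated B cells and 2.59, 1.17 and 0.782 TPM in PCs, which overlapped. Chac1 passed the filter only through the PC libraries, with 2 others at 1 TPM or more, so a difference was built into the filter. The change in PCs was 2.71 ± 0.53 over naive cells (adjusted p = 0.00118) and 1.49 ± 0.44 over activated B cells (adjusted p = 0.0149), the latter lost without activated replicate 2 (1.18, adjusted p = 0.0613). It was 1.75 and called over naive cells with Ig genes kept, and 0.56 and not called over activated B cells. In activated over naive B cells Chac1 was not called, but was called higher with Ig genes kept (1.19, or 1.15 without rescaling) and without PC replicate 1 (1.22). Cebpg, a C/EBP partner of ATF4, was 20.7, 11.9 and 11.6 TPM in activated B cells and 8.66, 7.41 and 4.87 TPM in PCs, and fell by 1.01 ± 0.27 (adjusted p = 0.00856). That call was lost without activated replicate 1 (-0.74) or PC replicate 3 (-0.78), and under median-of-ratios (-0.63) and quantile scaling (-0.53). Trib3, a pseudokinase that restrains ATF4, was at or under 1.65 TPM everywhere and was not called, except in PCs over activated B cells under median-of-ratios scaling (1.32) and on leaving out PC replicate 3 (1.42). Sesn2, which senses leucine for mTORC1, lay at 2.3 to 6.62 TPM with overlap in every comparison in the table without Ig genes. With them kept it was called lower in PCs, at -1.25 against naive cells and -1.26 against activated B cells, and its deposited levels were 0.685 to 1.75 TPM in PCs and 3.99 to 5.94 TPM in the other libraries.

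Of the 9 transport genes, none rose and 1 (11.1%) fell in activated against naive B cells, against 8.13% and 10.4% of all genes, with a median of -0.64. In PCs against activated B cells 3 (33.3%) rose and none fell, against 9.93% and 22.3% of all genes, with a median of 0.62, or -0.80 over the 8 tested with Ig genes kept. These 3 were Slc3a2, Slc38a2 and Slc1a4. Slc1a4 passed the filter through the PC libraries alone, so its rise was built into the filter and adds nothing to the comparison with all genes. PCs against naive cells had 1 that rose and 1 that fell, each 11.1% of the 9, where 11.4% and 26.3% of all genes did, so the share that rose was that of the background. The median was 0.27, or -1.11 with Ig genes kept.

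Slc3a2 (chr19:8706882-8723369, minus strand) encodes the 4F2 heavy chain, which carries light chains such as those of Slc7a5, Slc7a6 and Slc7a11 to the membrane. It was 50.5, 47.9 and 50.3 TPM in naive cells, 27.2, 23.2 and 24.7 TPM in activated B cells and 163, 149.7 and 140.4 TPM in PCs. Each group was therefore separate from the others, and the order was activated B cells, naive cells, PCs. Slc3a2 rose in PCs by 1.59 ± 0.10 over naive cells (adjusted p = 2.84e-07) and by 2.57 ± 0.12 over activated B cells (adjusted p = 2.05e-08). With Ig genes kept these values were 0.38, no longer called, and 1.37, still called. The deposited means of Slc3a2 in that table were 46.4 ± 1.40 TPM in naive cells, 22.4 ± 1.62 TPM in activated B cells and 44.1 ± 3.95 TPM in PCs (SD, n = 3), and without rescaling the PC changes were -0.08 and 0.96, neither called. Its change in activated against naive B cells was -0.98 ± 0.13 (adjusted p = 0.00016), just short of the fold bar and past it without naive replicate 2 (-1.01) or activated replicate 1 (-1.04).

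Among its light chains, Slc7a11 fell in activated B cells and Slc7a5 missed the threshold in PCs. Slc7a5, the large neutral amino acid carrier LAT1, was 6.36, 9.52 and 10.3 TPM in naive cells, 10.04, 11.2 and 15.4 TPM in activated B cells and 31.7, 29.1 and 8.24 TPM in PCs. The low PC value belongs to replicate 3, and the PC range overlapped both other groups. Over naive cells the change of Slc7a5 in PCs was 1.15 ± 0.47 (adjusted p = 0.0552), and without PC replicate 3 it was 1.76 ± 0.22 and called (adjusted p = 8.15e-05), with 1.30 ± 0.21 over activated B cells (adjusted p = 0.000509). It was called over naive cells in 8 of 21 alternatives, 7 of them with all 9 libraries, and its change was 0.03 with Ig genes kept.
Slc7a11, the cystine and glutamate exchanger, fell in activated B cells by 1.48 ± 0.28 (adjusted p = 0.00203), from 16.6, 12.6 and 14.1 TPM to 4.37, 6.68 and 3.93 TPM. In PCs it was 9.53, 4.94 and 9.82 TPM, a change of -0.85 ± 0.26 from naive cells that became a call without PC replicate 3 (-1.01). Its change from activated B cells to PCs was 0.62 ± 0.30, and 1.01 and 1.07, both called, under median-of-ratios and quantile scaling. Both PC changes of Slc7a11 were below 0 with Ig genes kept, at -0.40 and not called against activated B cells and -1.87 and called lower against naive cells. Slc7a6, the y+LAT2 light chain, changed by 0.85 ± 0.18 in activated B cells and 0.78 ± 0.19 in PCs over naive cells, under the fold bar. Its PC change over naive cells was called higher under median-of-ratios (1.27) and quantile scaling (1.32) but was -0.36 with Ig genes kept, where it was called lower against activated B cells (-1.19). Slc7a1, a cationic amino acid carrier that needs no heavy chain, was 34.6 to 50.2 TPM in activated B cells, above all naive (24.7 to 27.9 TPM) and all PC libraries (23.6 to 24.6 TPM), with changes of 0.64 ± 0.15 and -0.78 ± 0.15 that were also under the fold bar. Slc7a1 was called lower in PCs with Ig genes kept, at -1.92 against activated B cells and -1.29 against naive cells.

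Of the sodium-coupled carriers, Slc38a2 rose from activated B cells to PCs and Slc38a1 fell in PCs against naive cells. Slc38a2, the SNAT2 system A carrier, was 41.8, 40.5 and 56 TPM in naive cells, 23.5, 25.8 and 29 TPM in activated B cells and 55.2, 53.6 and 56.9 TPM in PCs. In the table without Ig genes activated B cells lay below every library of the other groups, while naive cells and PCs overlapped. Slc38a2 rose from activated B cells to PCs by 1.07 ± 0.15 (adjusted p = 0.000117) in the table without Ig genes and lay at -0.11 with Ig genes kept. Its relative Slc38a1 was 34.4, 35.8 and 40.0 TPM in naive cells, 27, 29.1 and 27.8 TPM in activated B cells and 16.8, 17.5 and 15.6 TPM in PCs. Slc38a1 fell in PCs against naive cells by 1.13 ± 0.13 (adjusted p = 2.13e-05), but by 0.63 and 0.68, under the fold bar, with median-of-ratios and quantile scaling.
Slc1a5, the glutamine carrier ASCT2, had the highest levels of the 9 transporters in naive cells, at 242, 239 and 216 TPM, with 212, 128 and 123 TPM in activated B cells and 143, 176 and 137 TPM in PCs. Its changes against naive cells, -0.64 ± 0.18 in activated B cells and -0.62 ± 0.18 in PCs, were under the fold bar, but with Ig genes kept the PC value was -1.84 and called lower. Slc1a4, the related ASCT1 carrier, was at most 0.709 TPM in naive cells and 0.42 TPM in activated B cells and was 1.73, 1.38 and 1.54 TPM in PCs. It was 1.68 ± 0.33 above activated B cells on the log2 scale (adjusted p = 0.00129), but since it passed the filter through the PC libraries alone it had to differ, and with Ig genes kept it was not tested. Over naive cells its change was 0.92 ± 0.31, which passed the bar under median-of-ratios (1.41) and quantile scaling (1.55), with estimated counts (1.52) and without naive replicate 3 (1.00). From naive to activated B cells it was -0.76 ± 0.36, which passed with the deposited log2 values, with estimated counts and without activated replicate 3 (-1.02).

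Of the 12 cytosolic synthetases, 4 (33.3%) rose and none fell in PCs against naive cells, where 11.4% and 26.3% of all genes did, with a median of 0.68, or -0.53 with Ig genes kept. In PCs against activated B cells 3 (25.0%) rose and none fell, where 9.93% and 22.3% of all genes did, with a median of 0.46, or -0.72 with Ig genes kept. In activated against naive B cells none was called by limma, with a median of 0.14, 4 being above and 1 below at an unadjusted p under 0.05. No share of all genes was taken at that p. The 12 genes together measured 634, 615 and 661 TPM in naive cells, 792, 673 and 717 TPM in activated B cells and 1223, 1261 and 1125 TPM in PCs. In the table with Ig genes the order was reversed for PCs, the sums being 594, 575 and 619 TPM in naive cells, 700.2, 604 and 648 TPM in activated B cells and 365, 350.5 and 338 TPM in PCs.

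Yars, the tyrosyl-tRNA synthetase (chr4:129189760-129219607, plus strand), had the largest change of the 12 in PCs over naive cells. It was 44.1, 35.3 and 45.4 TPM in naive cells, 58.2, 49.2 and 46.1 TPM in activated B cells and 187, 193 and 162 TPM in PCs. In the table without Ig genes PCs were far above both B cell groups, which lay close to each other. Yars rose by 2.11 ± 0.13 over naive cells (adjusted p = 2.44e-07) and by 1.82 ± 0.13 over activated B cells (adjusted p = 7.79e-07). With Ig genes kept its deposited levels were 51.4, 44.2 and 41.6 TPM in activated B cells and 55.9, 53.7 and 48.7 TPM in PCs. These ranges overlapped, and without rescaling the change of Yars between them was 0.21 and not called.
Nars, the asparaginyl-tRNA synthetase, charges the product of Asns, and was 63.9, 57.7 and 68.7 TPM, then 111, 75.8 and 92.7 TPM, then 227, 237 and 233 TPM in PCs. It rose by 1.86 ± 0.13 over naive cells (adjusted p = 5.43e-07) and by 1.34 ± 0.13 over activated B cells (adjusted p = 6.41e-06). With Ig genes kept, Yars (0.89) and Nars (0.65) stayed above 0 in PCs over naive cells but were under the fold bar, and over activated B cells both calls were lost (0.62 and 0.13).
Mars, the methionyl-tRNA synthetase, was 63, 49.9 and 55.9 TPM in naive cells, 62.8, 49.9 and 53.5 TPM in activated B cells and 109, 122 and 109.7 TPM in PCs. It rose by 1.00 ± 0.12 (adjusted p = 3.65e-05) and 1.03 ± 0.12 (adjusted p = 3.55e-05) over naive and activated B cells, and lay at -0.20 and -0.16 with Ig genes kept. Tars, the threonyl-tRNA synthetase, rose in PCs over naive cells by 1.01 ± 0.12 (adjusted p = 2.47e-05), from 45.8, 41 and 46.6 TPM to 95.7, 93.7 and 82 TPM, and lay at -0.19 with Ig genes kept. Mars and Tars were so near the fold bar that single libraries decided the call: Mars over naive cells lost it without naive replicate 2 (0.92) or PC replicate 2 (0.95) and with a replicate block (1.00 after rounding and just under the bar, adjusted p = 0.00011), Mars over activated B cells without activated replicate 2 (0.96) or PC replicate 2 (0.98), and Tars without naive replicate 2 (0.95), PC replicate 1 (0.96) or PC replicate 2 (0.98).

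The other 8 synthetases stayed under the fold bar in all 3 comparisons. Under median-of-ratios scaling Lars (1.32), Eprs (1.20), Gars (1.15) and Cars (1.06) passed it in PCs over naive cells and Lars (1.21) over activated B cells, Lars passing in both under quantile scaling too, and with Ig genes kept Wars was called lower against naive cells (-1.32) and Gars against activated B cells (-1.20). Their changes in PCs over naive cells were 0.83 ± 0.15 for Lars, 0.70 ± 0.14 for Eprs, 0.65 ± 0.12 for Gars, 0.57 ± 0.20 for Cars, 0.42 ± 0.14 for Aars, 0.29 ± 0.14 for Iars, 0.27 ± 0.09 for Sars and -0.12 ± 0.14 for Wars. Gars, which serves both the cytosol and mitochondria, was the one of these 8 with a change of at least 0.5 and an adjusted p under 0.05 already in activated B cells, at 0.66 ± 0.12 (adjusted p = 0.00166). Wars, the tryptophanyl-tRNA synthetase, was 66.2, 52.9 and 63.9 TPM, then 49.6, 44.3 and 43 TPM, then 59.1, 61.8 and 47.8 TPM. Exons of Aars share 15.1% of their bases with other genes, those of the synthesis gene Psph 10.4% with Cct6a and those of Mars 1.99% with Ddit3. In this unstranded library reads from such bases cannot be told apart by strand.

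None of 11 other cytosolic synthetases and complex factors was called by limma in any of the 3 comparisons, with median changes of 0.13 in PCs against naive cells, 0.38 in activated against naive B cells and -0.25 in PCs against activated B cells. At an unadjusted p under 0.05, 9, 8 and 6 of the 11 differed in these comparisons, all by less than the fold bar. No share of all genes was taken at that p. With Ig genes kept 6 of the 11 were called lower in PCs against naive cells, with a median of -1.06. In that fit 64.5% of all genes were called lower and the median gene lay at -1.40. Of 17 mitochondrial synthetases tested none rose, and 6 fell in PCs against naive cells: Aars2 (-1.43 ± 0.26), Hars2 (-1.31 ± 0.16), Mars2 (-1.43 ± 0.26), Pars2 (-1.60 ± 0.28), Vars2 (-1.06 ± 0.28) and Wars2 (-1.02 ± 0.24). These 6 are 35.3% of the 17, against 26.3% of all genes, and the median of the 17 was -0.49, close to that of all genes. Aars2 (-0.94) and Mars2 (-0.93) lost their calls under median-of-ratios scaling, and Aars2 (-0.96) under quantile scaling. The summed level of the 17 was 3817 to 4438 TPM in naive cells and 7118 to 7368 TPM in PCs, or 3574 to 4150 and 1979 to 2212 TPM with Ig genes kept. Without Ig genes only 4 of the 17 had a change above 0 in PCs against naive cells, the largest being 0.89. The higher sum in PCs therefore rested on few genes and does not describe the class. Mars and its mitochondrial counterpart thus had changes of opposite sign in the table without Ig genes, Mars2 being 3.97, 3.66 and 4.85 TPM in naive cells and 1.49, 1.11 and 1.11 TPM in PCs.

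**Figure D4:**
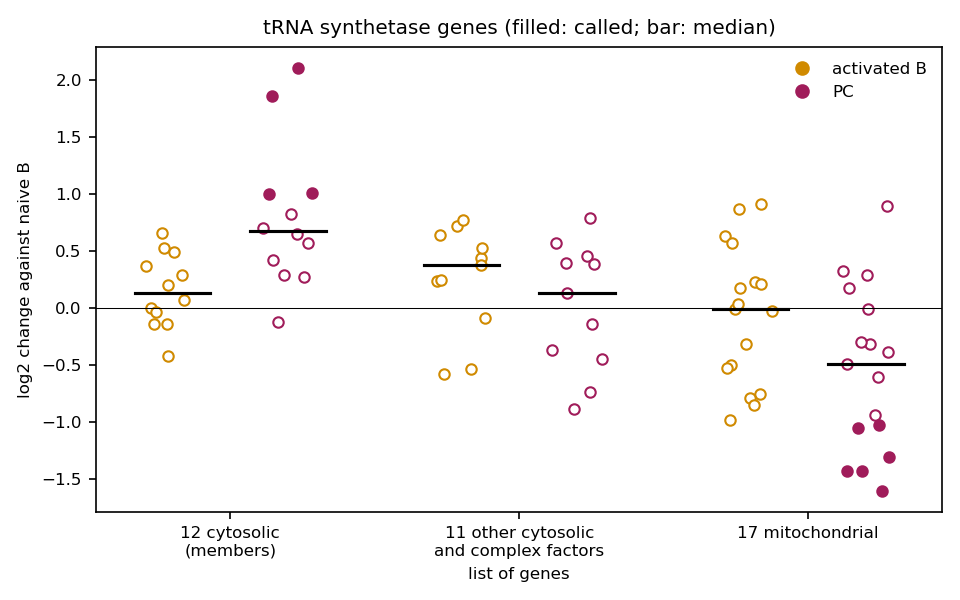
Log2 change over naive B cells of the 12 member synthetases, 11 other cytosolic synthetases and complex factors and 17 mitochondrial synthetases, in activated B cells and in PCs (table without Ig genes). Each point is a gene; Yars and Nars lie highest in PCs, and with Ig genes kept the median of the 12 members in PCs was -0.53.

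ATF4 itself and its partners were set beside the members from a list of 17 genes, of which 12 were tested. Atf4 was 83.3, 81.1 and 76.8 TPM in naive cells, 35.9, 44.2 and 47.4 TPM in activated B cells and 125, 111 and 131 TPM in PCs. In the table without Ig genes the groups did not overlap, and their order was the same as for Slc3a2. Atf4 rose from activated B cells to PCs by 1.52 ± 0.12 (adjusted p = 1.95e-06), or 0.32 and not called with Ig genes kept. Against naive cells its change was -0.93 ± 0.13 in activated B cells and 0.59 ± 0.11 in PCs, both under the fold bar. The former was called lower under quantile scaling (-1.07) and without activated replicate 3 (-1.01), and the latter called higher under median-of-ratios scaling (1.09) but -0.62 with Ig genes kept. None of the 12 rose and 3 fell in PCs against naive cells (25.0%, against 26.3% of all genes): Ddit4 (-2.28 ± 0.26), an mTORC1 inhibitor, Eif2ak4 (-1.17 ± 0.21), the kinase GCN2 that senses uncharged tRNA, and Nfe2l2 (-1.05 ± 0.15), the oxidative stress factor NRF2. Ddit4 kept its call under both other scalings (-1.78 and -1.86), whereas Eif2ak4 (-0.68 and -0.65) and Nfe2l2 (-0.55 and -0.65) lost theirs under median-of-ratios and quantile scaling, Eif2ak4 also without PC replicate 3 (-0.97) and Nfe2l2 also without PC replicate 2 (-0.99) and with the deposited log2 values and estimated counts (both -0.97). The remaining tested genes, Eif2ak1, Eif2ak2, Eif2ak3, Eif4ebp1, Ddit3, Ppp1r15a, Ppp1r15b and Xpot, were called in no comparison of this fit. With Ig genes kept, Eif2ak1 (-1.24), Eif2ak2 (-1.48), Eif2ak3 (-1.52), Eif4ebp1 (-1.36), Ddit3 (-1.61) and Ppp1r15b (-1.55) were called lower in PCs against naive cells. Ppp1r15a (-0.78) and Xpot (-0.78) were not. Atf3, Atf5, Nupr1, Stc2 and Cebpb did not pass the filter. The levels are of mRNA, and ATF4 protein was not measured.

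Members with and without the response element core were described side by side, with no test. In PCs against activated B cells 5 of the 11 members with the core rose and none fell (Asns, Pycr1, Chac1, Slc1a4 and Yars), with a median change of 0.93, while of 18 members whose window lacked it 3 rose and 4 fell, with a median of 0.07. In PCs against naive cells 5 of 11 with the core rose and none fell (median 0.92), and 5 of 18 without it rose and 1 fell (median 0.59). In activated against naive B cells the counts were 1 and 1 of 11 (median 0.29) and 4 and 0 of 18 (median 0.51). Slc3a2, Phgdh and Aldh18a1 rose in PCs without the core in their window, and Slc7a11 held 2 copies and fell in activated B cells. With Slc1a4 and Chac1 left aside, 3 of 9 with the core rose in PCs against activated B cells (median 0.62) and 4 of 9 in PCs against naive cells (median 0.65). In the table with Ig genes, 1 of 9 tested members with the core (Pycr1) was higher and 1 (Gars) lower in PCs against activated B cells, with a median of -0.40, against 1 higher and 8 lower of 18 without it, with a median of -0.93. In PCs against naive cells with Ig genes kept, 3 of 9 with the core were higher and 1 lower (median -0.19), and 0 of 18 higher and 5 lower without it (median -0.54).

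The reference against which a PC gene is measured decides part of these calls. With Ig genes kept, the median change of all genes moved by -0.93 in PCs against naive cells and by -0.97 in PCs against activated B cells, and 4.47% and 3.41% of 12324 genes were called higher while 64.5% and 59.7% were called lower. Of the 35 members tested there, 4 were higher and 9 lower in PCs against naive cells, and 2 higher and 11 lower in PCs against activated B cells. Asns (3.24), Pycr1 (5.04), Cth (1.69) and Chac1 (1.75) were the 4 called higher over naive cells, and Pycr1 (4.39) and Slc3a2 (1.37) the 2 called higher over activated B cells. The median member lay 1.13 above the median gene without Ig genes and 0.90 above it with them in PCs against naive cells, and 0.73 and 0.48 above it in PCs against activated B cells. All 12 synthetases were above the median of all genes under either table in PCs against naive cells. Median-of-ratios scaling moved the median of all genes by 0.49 in PCs against naive cells and by 0.38 in PCs against activated B cells. That median then lay at 0.02 and 0.08, with 22 members higher and 1 lower, and 14 higher and 1 lower. In activated against naive B cells little changed between the tables, with 6 members higher and 1 lower with Ig genes kept.

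**Figure D5:**
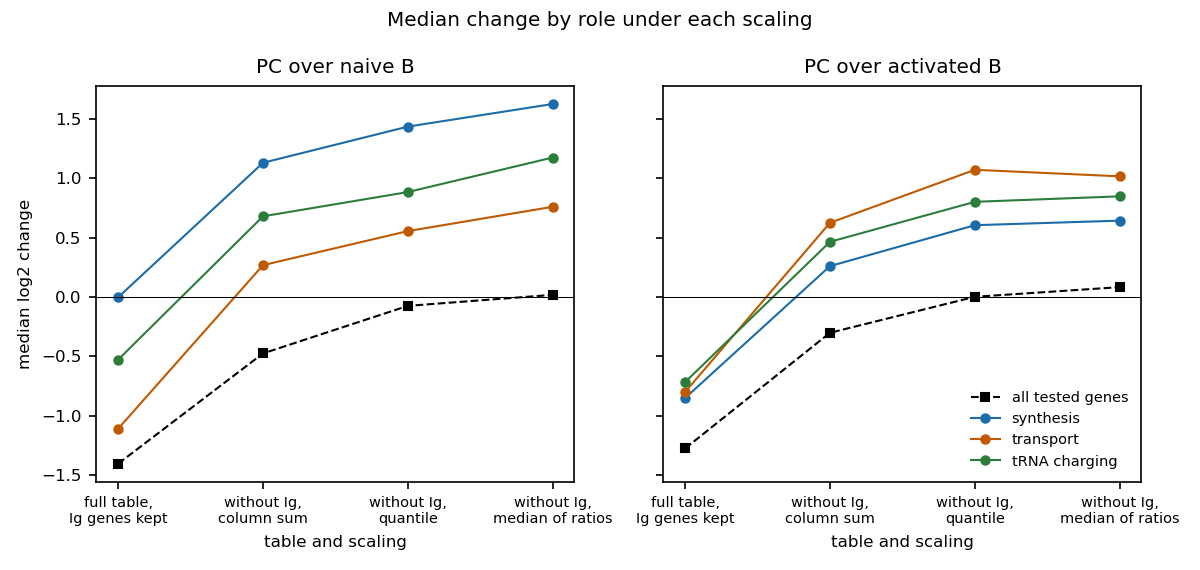
Median log2 change of the synthesis, transport and tRNA charging genes and of all genes tested under 4 scalings, in PCs against naive and against activated B cells. With Ig genes kept the medians of all 3 roles are at or below 0, and in all 4 scalings they lie above the median of all genes.

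Further enzymes and carriers of the same pathways, outside the 37 members, gave wider context, and genes among the largest changes are named. Of 28 other amino acid and one-carbon enzymes tested, 9 (32.1%) rose and 5 (17.9%) fell in PCs against naive cells, where 11.4% and 26.3% of all genes did. Tyms, thymidylate synthase, led the rises at 2.09 ± 0.16, from 20.0, 18.7 and 21 TPM to 95.2, 94.5 and 72 TPM, followed by the branched-chain aminotransferase Bcat1 (1.85 ± 0.23) and the aspartate aminotransferase Got1 (1.60 ± 0.13). These were 0.88, 0.69 and 0.40 with Ig genes kept, none of them called. The falls were led by Glul, glutamine synthetase, at -2.42 ± 0.20, from 52.8, 48.1 and 53 TPM to 9.36, 7.41 and 11.1 TPM, then Mat2a (-1.28 ± 0.11), which makes S-adenosylmethionine, and Mtr (-1.12 ± 0.24), methionine synthase. Median-of-ratios scaling took the call from Mat2a (-0.79) and Mtr (-0.62), and Mtr also lost it under quantile scaling (-0.57) and without PC replicate 3 (-0.91). In activated against naive B cells 5 of the 28 (17.9%) rose and 3 (10.7%) fell, where 8.13% and 10.4% of all genes did. Ass1, argininosuccinate synthase, rose there by 3.24 ± 0.25 (adjusted p = 6.21e-06), from 13.9, 13.1 and 12.4 TPM to 118, 146 and 124 TPM, and was 25.6, 21.7 and 46.7 TPM in PCs. PCs thus lay between the other groups for Ass1, 1.14 ± 0.28 over naive cells in the table without Ig genes and -0.031 with them. Without PC replicate 3, its highest PC library, the Ass1 value was 0.82 and not called. Glud1, glutamate dehydrogenase, rose in activated B cells by 1.29 ± 0.18 and fell from there to PCs by 2.38 ± 0.20.

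Of 15 other amino acid carriers tested, 4 rose and 3 fell in PCs against naive cells, or 2 (18.2%) and 3 (27.3%) of the 11 that did not pass the filter through a single group. The shares of all genes were 11.4% and 26.3%, so the share that fell was near the background and 2 genes carried the rises. Slc7a3 and Slc7a8, among the 4, passed it through the PC libraries, so a difference was built into the filter and their values are descriptions. Slc7a3, a cationic amino acid carrier, was 0.311, 0.324 and 0.701 TPM in naive cells, 0.3, 2.28 and 1.03 TPM in activated B cells and 16, 11.6 and 13.3 TPM in PCs, 3.91 ± 0.41 above naive cells. Slc38a10 rose by 1.56 ± 0.13, from 93.8, 94 and 95.9 TPM to 282, 325 and 244 TPM, and was therefore more abundant in PCs than any of the 9 member carriers, but its change was 0.35 and not called with Ig genes kept. Slc7a8, a carrier of large neutral amino acids, was 1.54 ± 0.32 above naive cells. Slc6a6, the taurine carrier, fell by 1.87 ± 0.22, Slc43a2 by 1.49 ± 0.23 and Slc38a7 by 1.40 ± 0.28. Under median-of-ratios scaling Slc43a2 (-0.99) and Slc38a7 (-0.90) were not called, and under quantile scaling Slc38a7 was not (-0.87), while Slc6a6 kept its call in both (-1.38 and -1.39).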

How the data were processed

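Sorted splenic cells gave 9 cDNA libraries (SMARTer v4, Nextera XT), with 3 mice per group, whose reads the authors pseudoaligned with kallisto to mouse transcripts; the submitters' processing notes name the mm10 build, and the transcript annotation is not given in the sources used here. The deposited tables hold TPM as the authors computed it from kallisto estimates, and log2 values that the authors produced with voom in limma, each with Ig genes kept (30317 genes) and with them removed (29995 genes). All table columns matched a sample label, so 0 were left out. The main analysis used the deposited TPM table without Ig genes, a choice made here, and the study's route of voom and limma: genes at 1 TPM or more in at least 3 libraries (12892) were passed to voom and limma 3.58.1 in R 4.3.3 with a mean for each of the 3 groups, a library scale equal to its sum and Benjamini-Hochberg adjustment over all genes tested; differences are on the scale of log2(TPM + 0.5). The deposited log2 values allowed estimated reads to be recovered, which give the depth (28958700 to 39341500 per library with Ig genes) and a further fit. Means are given with SE from the fit.

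All 37 members were named whatever their values, as were the genes around eIF2alpha and ATF4; of other pathway genes, up to 3 of the largest called rises and 3 of the largest called falls per comparison were eligible, not all of which are reported here. The members and the gene lists were chosen with earlier results of these data known. Alternatives were the table with Ig genes (rescaled to its column sums and, added after seeing the data, as deposited), median-of-ratios and quantile scaling, the deposited log2 values, estimated counts, other filters and pseudocounts, a replicate block, fits of 2 groups, leaving out each library and a lower fold bar. The procedure was tested on simulated data. Gene coordinates are those of GENCODE M21 on GRCm38.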

Additional observations from a re-analysis of the deposited data

Results flagged for a closer look

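The summed level of 8 hepatocyte markers, which no comparison used, was 4906 TPM in PC replicate 3 against 26.6 and 22.8 TPM in the other PC libraries, 1.76 to 3.44 TPM in naive B cells and 3.76 to 5.66 TPM in activated B cells. Among the members, PC replicate 3 also had the highest Cth (19.4 TPM) and the lowest Slc7a5 (8.24 TPM), Chac1 (2.6 TPM) and Trib3 (0.254 TPM) of the PC libraries. Without it, 13 members were higher and 3 lower in PCs against naive cells, and 12 were higher and 3 lower in PCs against activated B cells. The median gene changed by -0.47 and -0.29 in that fit. The origin of the hepatocyte transcripts was not tested.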

How the results depend on the processing

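With Ig genes kept, 4 members were higher and 9 lower in PCs against naive cells, and 2 higher and 11 lower in PCs against activated B cells. The fitted change went from above 0 to below 0 there in 15 of 35 members in PCs against naive cells, 17 of 35 in PCs against activated B cells and 1 of 35 in activated against naive cells. Those called in either fit, with Ass1 from outside the members, were Ass1 (-0.031), Mars (-0.20) and Tars (-0.19) in PCs against naive cells, and Mars (-0.16), Slc1a5 (-1.18) and Slc38a2 (-0.11) in PCs against activated B cells. With the deposited TPM of the table with Ig genes not rescaled to its column sums, an alternative chosen after seeing the data, 3 members were higher and 17 lower in PCs against naive cells, 1 higher and 20 lower in PCs against activated B cells and 6 higher and 2 lower in activated against naive cells. The median gene changed by -1.85, -1.68 and -0.20 there, in the same order. Among the members and some other genes of these pathways, not all of them described above, the changes whose sign went against a call of either fit there were, in PCs against naive cells, Aars (-1.21), Ass1 (-0.48), Atf4 (-1.07), Cars (-1.07), Gars (-1.004), Got1 (-0.051), Gpt2 (-0.15), Iars (-1.36), Mars (-0.66), Mthfd2 (-1.02), Phgdh (-0.054), Ppp1r15a (-1.23), Psph (-0.37), Sars (-1.39), Shmt2 (-1.05), Slc38a10 (-0.11), Slc38a2 (-1.38), Slc3a2 (-0.076), Tars (-0.65) and Xpot (-1.23), and in PCs against activated B cells Aars (-1.36), Atf4 (-0.082), Bcat1 (-1.02), Cars (-1.08), Ddit3 (-1.19), Eprs (-1.27), Iars (-1.16), Mars (-0.57), Nars (-0.28), Ppp1r15b (-1.06), Psph (-1.38), Sars (-1.20), Shmt2 (-1.28), Slc1a5 (-1.59), Slc38a2 (-0.52), Tars (-1.08), Wars (-1.29) and Xpot (-1.09). Median-of-ratios scaling gave 22 higher and 1 lower in PCs against naive cells and 14 higher and 1 lower in PCs against activated B cells; quantile scaling gave 18 higher and 1 lower, and 12 higher and 1 lower, in these comparisons, and 5 higher and 2 lower in activated against naive cells, where the deposited log2 values and the estimated counts also gave 2 lower, whereas a mean TPM of at least 10 gave 0 lower there by limma. A log2 bar of 0.5 gave 21 higher and 4 lower in PCs against naive cells, 11 and 4 in activated against naive cells, and 13 and 6 in PCs against activated B cells. Leaving out 1 library in turn gave 10 to 13 higher and 2 to 3 lower in PCs against naive cells, 3 to 6 higher (3 without activated replicate 1) and 1 to 2 lower in activated against naive cells, and 7 to 12 higher and 3 to 4 lower in PCs against activated B cells. Of the 14, 6 and 13 calls in these comparisons, in the same order, 11, 3 and 10 were kept in every such fit. In every alternative where the gene was tested, 4, 3 and 3 were kept. Slc1a4 was not tested with Ig genes kept, and Slc3a2 lost its call over activated B cells there without rescaling (0.96). A replicate block gave 12 higher and 2 lower, 6 and 1, and 10 and 4, in that order; same-numbered libraries correlated at -0.07 to 0.07 in their deviations and are not shown to be paired. The SE in PCs against naive cells was 0.75 for Cbs, 0.44 for Trib3 and 0.31 for Slc1a4, all low genes, but also 0.47 for Slc7a5, and 0.09 for Phgdh; that of Cth was 0.86, or 0.37 without PC replicate 3. What depth limits was not tested apart from the spread between libraries. Where no cause is stated, the cause was not tested.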
